A study of Homo sapiens with 9 samples.

Results

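The genes described here are those of the TGF-beta ligands, receptors and binding proteins, with the TGF-beta induced matrix protein TGFBI. They are 10 of the 28395 genes in a table of RNA counts, chosen by name and matched through their NCBI gene identifiers. The ligands are TGFB1 and TGFB2, the receptors TGFBR1, TGFBR2 and TGFBR3, and the latent TGF-beta binding proteins LTBP1, LTBP2, LTBP3 and LTBP4. All 10 were tested, since each averaged 50 counts or more across the 9 libraries.

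RNA was sequenced in 3 human kidney cell lines, with 3 libraries of each. HK2 is a proximal tubule line, immortalised with papillomavirus oncogenes and labelled as the parental phenotype. 786-O is a line of clear cell renal cell carcinoma (ccRCC), and 786-M1A is its metastatic derivative. Every line was kept in Plasmax, a medium modelled on the nutrients of human plasma, and received no treatment. Normal tubule is thus represented by a single line and metastasis by a single derivative. The number of counts per library was between 30212291 and 45362428. The unit used below is the CPM, the count scaled to a common library total after correction by TMM factors of 0.967 to 1.03, and 3 counts, taken as the floor, are between 0.0647 and 0.0964 CPM. Each value is a mean ± SD over the 3 libraries of a line, and adjusted p-values come from edgeR's quasi-likelihood test over 12695 genes. These p-values measure the spread between dishes of a line. Each library is bulk RNA, so that fewer cells with a transcript and less transcript per cell cannot be told apart.

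TGF-beta is made as a precursor whose propeptide stays bound to the mature dimer and keeps it latent. The latent complex is commonly joined to an LTBP, which anchors it in the extracellular matrix through fibrillin and fibronectin. Once freed by integrins, proteases or thrombospondin, the ligand binds TGFBR2, which recruits and phosphorylates TGFBR1, and TGFBR1 then phosphorylates SMAD2 and SMAD3. In kidney tubule cells the pathway is known for growth arrest, for loss of epithelial features and for matrix production in fibrosis.

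The promoters of 4 of the 6 members that differed by at least 2-fold between any lines are shown first, each as the 250 bases before an annotated start (RefSeq, GRCh38.p14, 5′ to 3′ on the strand of the gene). Capitals mark short motifs found on either strand. They are the SMAD box CAGAC, the GC box GGGCGG, the AP-1 site TGACTCA, the cAMP response element TGACGTCA, the TATA box TATAAA and ACGTG, the core of the hypoxia response element. LTBP1 has 2 starts shown, which give a long and a short protein, and the counts do not separate them. The window of another annotated LTBP1 start, just downstream of these, overlaps transcribed sequence over 100 bases and is not shown. For LTBP4 the downstream start is shown, since the other window lies within transcribed sequence. The LTBP2 window overlaps transcribed sequence too and is not shown, and TGFBR3, which was counted at a low level, is left out.
LTBP1, upstream start, chr2:32946703-32946952, plus strand: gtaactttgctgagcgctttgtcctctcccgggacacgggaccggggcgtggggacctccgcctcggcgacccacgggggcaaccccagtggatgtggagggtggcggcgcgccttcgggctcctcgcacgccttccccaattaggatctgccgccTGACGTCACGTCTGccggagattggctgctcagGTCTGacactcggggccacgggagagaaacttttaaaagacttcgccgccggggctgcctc
LTBP1, downstream start, chr2:33134119-33134368, plus strand: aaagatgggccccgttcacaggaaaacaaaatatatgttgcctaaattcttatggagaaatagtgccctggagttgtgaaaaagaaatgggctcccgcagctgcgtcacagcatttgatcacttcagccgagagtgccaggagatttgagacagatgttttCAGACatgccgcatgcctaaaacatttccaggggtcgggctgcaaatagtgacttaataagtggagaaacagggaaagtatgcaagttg
LTBP4, downstream start, chr19:40601119-40601368, plus strand: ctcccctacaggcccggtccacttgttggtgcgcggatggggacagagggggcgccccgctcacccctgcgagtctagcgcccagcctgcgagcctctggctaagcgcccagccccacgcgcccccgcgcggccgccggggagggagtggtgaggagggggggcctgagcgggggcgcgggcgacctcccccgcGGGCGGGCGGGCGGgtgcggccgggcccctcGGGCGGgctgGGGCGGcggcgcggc
TGFB2, chr1:218345086-218345335, plus strand: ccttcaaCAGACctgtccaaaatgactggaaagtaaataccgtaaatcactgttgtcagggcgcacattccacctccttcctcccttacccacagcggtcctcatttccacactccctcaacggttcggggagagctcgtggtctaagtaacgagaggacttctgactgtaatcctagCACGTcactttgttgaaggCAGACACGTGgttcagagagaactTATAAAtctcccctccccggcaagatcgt
TGFBI, chr5:136028738-136028987, plus strand: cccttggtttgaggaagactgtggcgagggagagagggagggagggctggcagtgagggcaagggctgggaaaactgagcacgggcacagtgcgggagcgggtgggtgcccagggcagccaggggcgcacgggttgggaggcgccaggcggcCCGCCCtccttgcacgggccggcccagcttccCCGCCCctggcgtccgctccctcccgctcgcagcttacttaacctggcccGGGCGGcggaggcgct

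The LTBP1 upstream window held 2 SMAD boxes, 1 cAMP response element and 1 ACGTG, and in the run of capitals these overlap each other. Its downstream window held 1 SMAD box only among these motifs. TGFB2 had 2 SMAD boxes, 1 TATA box and 3 matches of ACGTG, of which 2 are the same palindrome read on each strand. The windows of LTBP4 and TGFBI held GC boxes, 5 and 3 respectively, with some of those of LTBP4 overlapping. Among 27305 windows of the same length before annotated starts, 37.8% held the SMAD box, 42.3% the GC box, 18.7% ACGTG, 11.1% the TATA box, 4.16% the AP-1 site and 1.77% the cAMP response element. The matches describe these letters and no binding was measured.

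The 3 comparisons differed in how many members passed the test. Between 786-M1A and 786-O, 7 of the 10 members passed the threshold of 0.05 on the adjusted p (are called), 4 of them higher in the derivative and 3 lower. Of all genes tested, 56.0% were called in that comparison, 27.9% higher and 28.0% lower, so that the share among the members was near the background. The libraries of these lines did not overlap for 6 members, against 61.6% of all genes. In 786-O against HK2 all 10 members were called, 5 in each direction, where 84.2% of all genes were called, 41.6% higher and 42.6% lower. None of the 10 overlapped between these lines, and 85.4% of all genes did not. In 786-M1A against HK2, 8 members were called, 4 in each direction, beside 84.9% of all genes, 41.6% higher and 43.3% lower. The libraries did not overlap for the same number of members, 8, and for 85.0% of all genes.

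Differences of at least 2-fold were fewer. LTBP1 and LTBP4 were the 2 such members between 786-M1A and 786-O, both higher in 786-M1A, with 6.59% of all genes past that size in either direction. Against HK2, 786-O had 6 members past it (TGFB2, TGFBR3, LTBP2 and LTBP4 lower, LTBP1 and TGFBI higher), against 22.3% of all genes. LTBP1 was at the edge of that size there (1.01) and under it in 7 of 14 alternatives, and TGFBR3 was under it in 1 (-0.96 without 786-O replicate 1), so that the count was 5 or 6. 786-M1A had 5 (TGFB2, TGFBR3 and LTBP2 lower, LTBP1 and TGFBI higher), against 25.4% of all genes. Both counts against HK2 include TGFBR3, whose direction there was fixed in advance. The comparisons share lines, so that they are not independent of each other. The median log2 fold change of the members was 0.06, 0.03 and 0.06 in the order given above, next to 0, -0.01 and -0.02 for all genes.

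**Figure D1:**
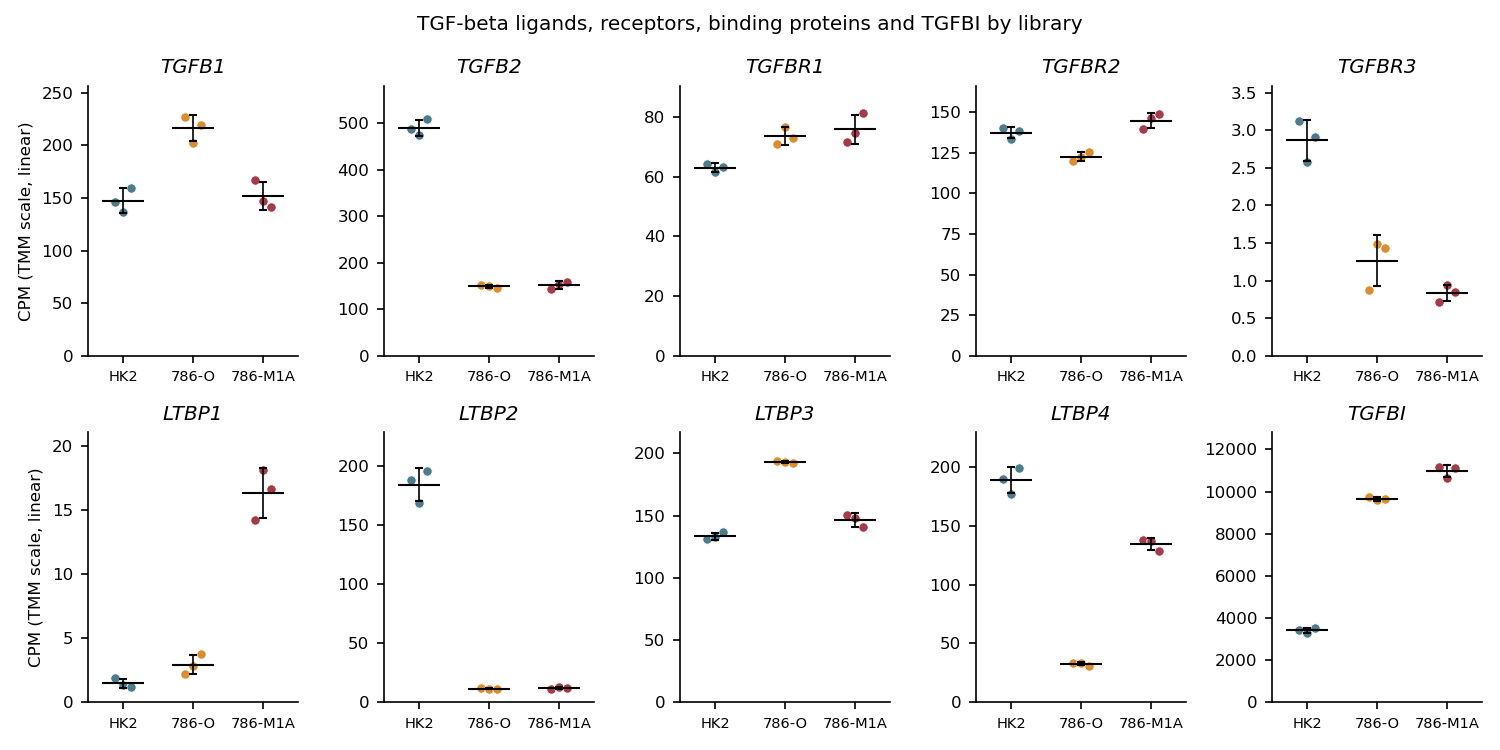
CPM (linear axis from 0, TMM scale) of the 10 members in each library (points), with the mean (long bar) and SD (whiskers) of the 3 libraries of HK2, 786-O and 786-M1A. LTBP1 is highest in 786-M1A, TGFB2 and LTBP2 are highest in HK2, LTBP4 is lowest in 786-O, and TGFBI lies between 3312 and 3520 CPM in HK2 and from 9581 CPM upwards in every library of the cancer lines.

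**Figure D2:**
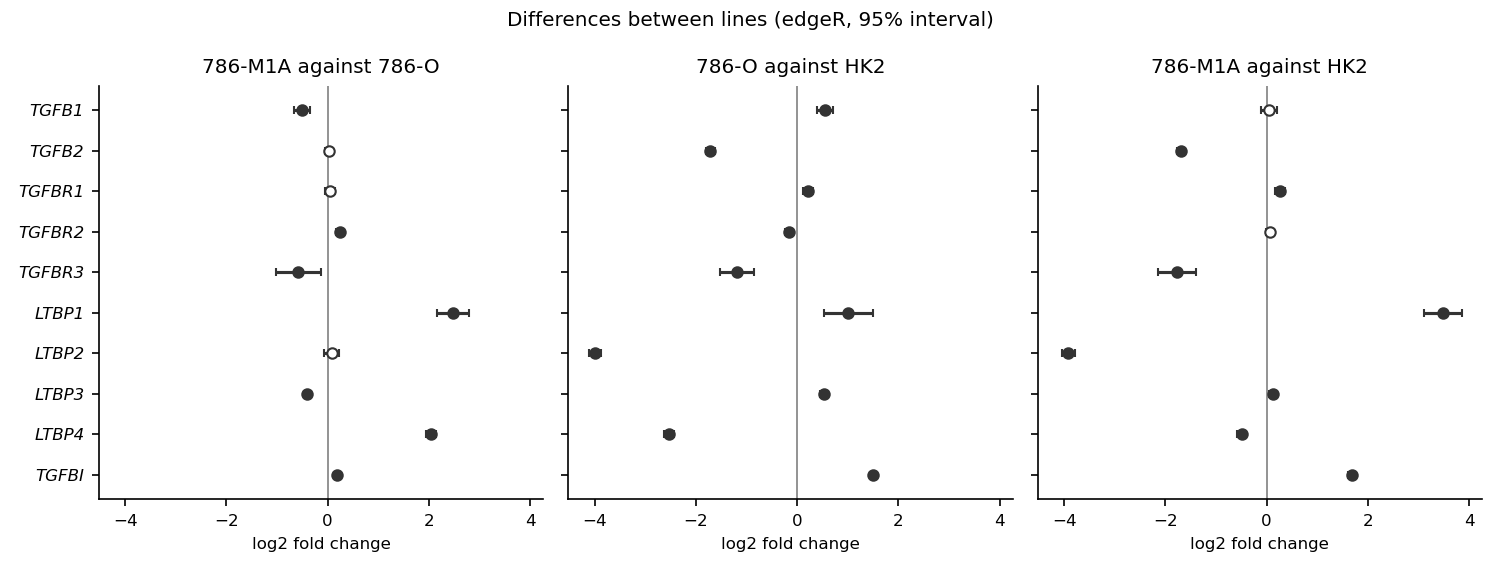
Log2 fold change of each member in the 3 comparisons, the line named before "against" minus the other, with a 95% interval derived from the F statistic of the edgeR test. Filled points are called at an adjusted p under 0.05 and open points are not: 7, 10 and 8 members are called from left to right.

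The ligand genes were both expressed in every line, and their balance differed between HK2 and the cancer lines. TGFB1 (chr19:41301587-41353922, minus strand, GRCh38) encodes the best known of the ligands, which acts on immune, epithelial and stromal cells. It was measured at 146, 136 and 159.7 CPM in the HK2 libraries, 227, 203 and 219 CPM in 786-O and 167, 147 and 141 CPM in 786-M1A. All 786-O libraries were above those of the other lines, and the libraries of HK2 and 786-M1A overlapped. TGFB1 was higher in 786-O than in HK2 by 0.55 on the log2 scale (SE 0.07, adjusted p = 1.30e-05), and 786-M1A was below 786-O, with a log2 fold change of -0.51 (SE 0.07, adjusted p = 6.44e-05). Its log2 fold change in 786-M1A relative to HK2 was 0.04 (95% interval -0.12 to 0.20, adjusted p = 0.604), and it changed sign under upper-quartile scaling. The exons of TGFB1 overlap those of HNRNPUL1 on the opposite strand over 215 bases, or 6.59% of their length. The strand setting of the counting is not given in the sources used here, so that some reads may belong to either gene.

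TGFB2 (chr1:218345336-218444619, plus strand) encodes a ligand that binds TGFBR2 poorly unless betaglycan, the TGFBR3 product, presents it. The HK2 libraries had 487, 475 and 509 CPM, the 786-O libraries 152, 150.3 and 146 CPM, and those of 786-M1A 143, 155 and 158 CPM. Every HK2 library was above every cancer library, and the cancer lines overlapped. TGFB2 was 3.29-fold lower in 786-O than in HK2 (log2 fold change -1.72, SE 0.04, adjusted p = 8.28e-20) and 3.23-fold lower in 786-M1A (log2 fold change -1.69, SE 0.04, adjusted p = 9.89e-20). The difference between 786-M1A and 786-O was 0.03 on the log2 scale, with a 95% interval from -0.06 to 0.11 (adjusted p = 0.618). The antisense gene TGFB2-AS1 shares 701 bases with its exons but had a mean of 10.2 counts, next to 10404 for TGFB2. On the same strand TGFB2-OT1 shares 22.7% of the exon bases and had 0 counts, and how reads within both were assigned is not given in the sources used here.

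Levels of different members, and of TGFB3, are compared with each other only per kilobase of exons. On that scale TGFB2 made up 63.8% ± 0.971 (SD, n = 3) of the summed level of TGFB1, TGFB2 and TGFB3 in HK2, and TGFB1 made up 35.5% ± 1.03. In 786-O the order was the opposite, with 72.5% ± 1.15 for TGFB1 and 27.1% ± 1.22 for TGFB2, and in 786-M1A the shares were 64.7% ± 3.15 and 35.1% ± 3.17. TGFB3, the remaining ligand of the family, took 0.742%, 0.418% and 0.230%. The sum was 127 ± 6.43, 91.3 ± 3.92 and 71.8 ± 2.84 CPM per kilobase in HK2, 786-O and 786-M1A, without overlap among the lines. Dividing by the longest transcript in place of all exons gave TGFB2 60.6%, 24.6% and 32.2% of the sum, in the same order of lines. An exact permutation test of any such difference cannot go below 0.1 with 3 libraries against 3.

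The receptor kinases varied little and the co-receptor TGFBR3 varied more, at a low level. TGFBR1 (chr9:99104038-99154192, plus strand), the type I kinase, had 64.3, 61.6 and 63.1 CPM in HK2, 70.9, 76.7 and 73.0 CPM in 786-O and 71.7, 74.6 and 81.1 CPM in 786-M1A. It was higher than in HK2 by 0.22 on the log2 scale in 786-O (SE 0.05, adjusted p = 1.96e-04) and by 0.27 in 786-M1A (SE 0.05, adjusted p = 2.38e-05). The cancer lines overlapped, and their log2 fold change was 0.04 (95% interval -0.05 to 0.14, adjusted p = 0.436).

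TGFBR2 (chr3:30606601-30694142, plus strand), the type II kinase that binds the ligand, had 140.2, 134 and 138 CPM in HK2, 120.0, 122 and 126 CPM in 786-O and 139, 146 and 149 CPM in 786-M1A. The 786-O libraries were the lowest and overlapped with neither of the other lines. In 786-O the gene was below HK2 by a log2 fold change of -0.17 (SE 0.04, adjusted p = 4.70e-04), and in 786-M1A it was above 786-O by 0.24 (SE 0.04, adjusted p = 1.76e-05). Against HK2 the value for 786-M1A was 0.07 (95% interval -0.01 to 0.15, adjusted p = 0.0779), and without a filter on low counts it was called, at 0.10 (adjusted p = 0.0233).

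TGFBR3 (chr1:91680343-91906335, minus strand) encodes betaglycan, which lacks a kinase and presents ligands to TGFBR2. Its counts were 97, 104 and 135 in HK2, 39, 56 and 61 in 786-O and 26, 36 and 32 in 786-M1A, or 2.87 ± 0.272, 1.27 ± 0.338 and 0.834 ± 0.110 CPM. HK2 was above the cancer lines in every library, and the cancer lines overlapped with each other. The cancer lines alone were under the mean count needed for a test. TGFBR3 was thus tested only through HK2, and its direction against HK2 was fixed by that filter. The log2 fold change was -1.18 in 786-O (SE 0.16, adjusted p = 7.27e-07) and -1.77 in 786-M1A (SE 0.18, adjusted p = 8.12e-09) against HK2. Between the cancer lines it was -0.59 (SE 0.21, adjusted p = 0.0243), and this call was lost without 786-O replicate 2 (-0.46, adjusted p = 0.112), 786-O replicate 3 (-0.47, adjusted p = 0.108), 786-M1A replicate 1 (-0.49, adjusted p = 0.0833) or 786-M1A replicate 3 (-0.58, adjusted p = 0.0535).

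The latent TGF-beta binding proteins held the largest differences among the members, and each had a pattern of its own over the lines. LTBP1 (chr2:32946953-33399509, plus strand) encodes a carrier that is linked to the propeptide by disulfide bonds and deposited on fibronectin and fibrillin. It was counted 59, 55 and 57 times in HK2, 100, 107 and 159 times in 786-O and 516, 697 and 630 times in 786-M1A, which is 1.50 ± 0.352, 2.95 ± 0.756 and 16.4 ± 1.96 CPM. The lines were ordered HK2, 786-O and 786-M1A without overlap. LTBP1 was 2.02-fold higher in 786-O than in HK2, just past the 2-fold limit (log2 fold change 1.01, SE 0.22, adjusted p = 8.70e-04) and 11.2-fold higher in 786-M1A (log2 fold change 3.49, SE 0.17, adjusted p = 1.52e-10). The 786-M1A libraries were above 786-O by 2.47 on the log2 scale (95% interval 2.15 to 2.80, adjusted p = 7.18e-09). The counts are a sum over transcripts and do not tell which of its annotated starts was used. On the opposite strand 3.39% of its exon bases, and 2.28% of those of LTBP2, overlap lncRNA genes that were not analysed here.

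LTBP2 (chr14:74498183-74612378, minus strand) is the member of the family that does not bind latent TGF-beta and is known as a component of microfibrils. It had 188, 169 and 196 CPM in HK2, 11.8, 11.6 and 11.2 CPM in 786-O and 11.4, 12.7 and 12.6 CPM in 786-M1A. Every HK2 library was far above the cancer lines, which overlapped. LTBP2 was 15.9-fold lower in 786-O (log2 fold change -4.00, SE 0.06, adjusted p = 3.74e-23) and 15.1-fold lower in 786-M1A (log2 fold change -3.91, SE 0.06, adjusted p = 4.91e-23) than in HK2. The cancer lines differed by a log2 fold change of 0.08 (95% interval -0.07 to 0.23, adjusted p = 0.353).

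LTBP3 (chr11:65538559-65558930, minus strand) encodes a carrier that binds latent TGF-beta like LTBP1. The libraries had 131, 133 and 137 CPM in HK2, 194, 193 and 193 CPM in 786-O and 151, 148 and 141 CPM in 786-M1A. No lines overlapped, with 786-O the highest. The log2 fold change was 0.53 for 786-O (SE 0.04, adjusted p = 1.37e-11) and 0.13 for 786-M1A (SE 0.04, adjusted p = 0.00289) against HK2, and -0.40 for 786-M1A against 786-O (SE 0.04, adjusted p = 7.21e-09). TGFB1 and LTBP3 thus followed the same order of means, and among the members they were the nearest pair, with a distance of 0.257 between their centred log2 CPM over the 9 libraries.

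LTBP4 (chr19:40592883-40629818, plus strand) encodes a carrier that binds latent TGF-beta weakly and is needed for elastic fibres. It had 189.9, 177 and 199 CPM in HK2, 33.2, 33.5 and 31.1 CPM in 786-O and 138, 137 and 129 CPM in 786-M1A. The 786-O libraries were the lowest, those of 786-M1A lay between, and no lines overlapped. LTBP4 was 5.79-fold lower in 786-O than in HK2 (log2 fold change -2.53, SE 0.05, adjusted p = 1.93e-21) and 4.12-fold higher in 786-M1A than in 786-O (log2 fold change 2.04, SE 0.05, adjusted p = 1.05e-18). 786-M1A was below HK2, with a log2 fold change of -0.49 (SE 0.04, adjusted p = 1.22e-09).

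Per kilobase of exons, the summed level of the LTBP genes was 55.3 ± 3.04, 22.5 ± 0.146 and 32.9 ± 0.987 CPM in HK2, 786-O and 786-M1A (SD, n = 3). In HK2 the sum consisted of 42.0% LTBP4, 36.6% LTBP2, 21.0% LTBP3 and 0.369% LTBP1. In 786-O LTBP3 alone made up 74.7% ± 0.312, and LTBP4 17.9% ± 0.578. In 786-M1A LTBP4 took 50.4% ± 0.539, LTBP3 38.7% ± 0.589, LTBP1 6.78% ± 0.826 and LTBP2 4.10% ± 0.312. These values depended on the length used. With the longest transcript the sums were 87.1, 48.3 and 61.0 CPM per kilobase, still lowest in 786-O. In 786-M1A LTBP3 then had 49.7%, LTBP4 43.8% and LTBP1 4.13%, and in HK2 LTBP3 had 31.8% and LTBP2 25.0%, so that LTBP3 passed LTBP4 in the one line and LTBP2 in the other. The share of LTBP1 in 786-O was 1.79% by exons and 0.940% by the longest transcript, and that of LTBP2 there 5.66% and 2.83%. The exons of LTBP3 come to 11521 bases in the annotation and its longest transcript to 4833 bases.

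**Figure D3:**
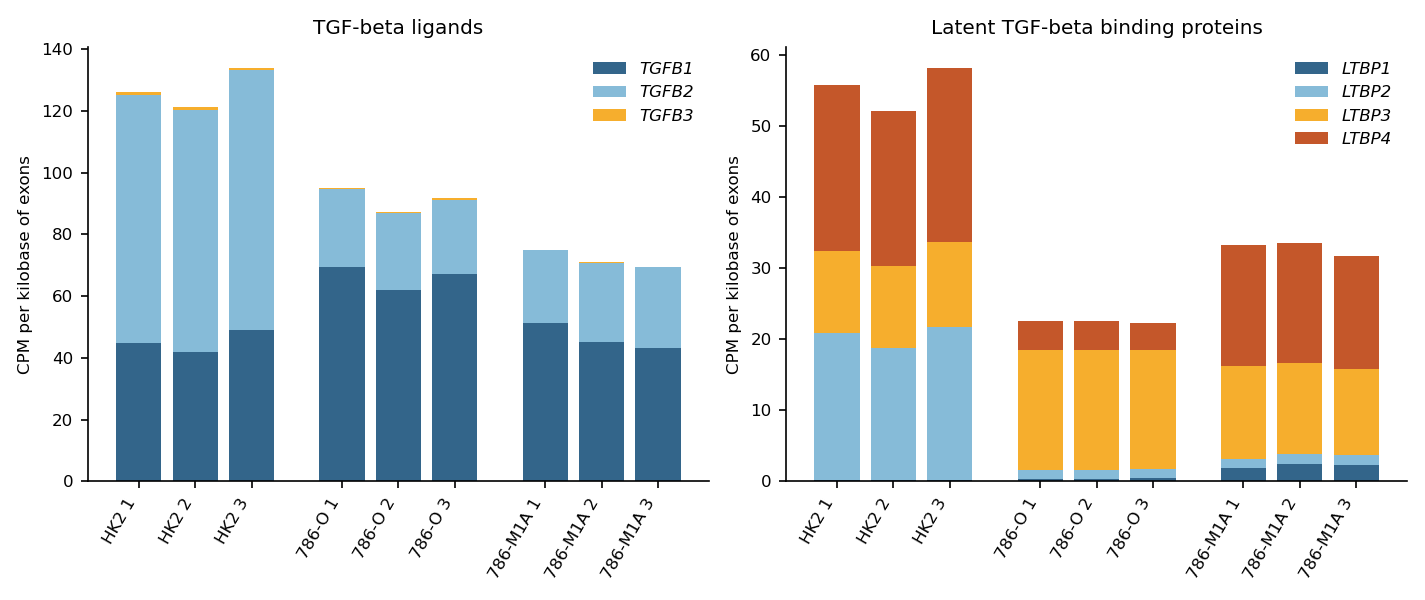
CPM per kilobase of annotated exons of the TGF-beta ligands (left) and of the LTBP genes (right), stacked for each of the 9 libraries. TGFB2 is the larger part of the ligands in HK2 and TGFB1 in the cancer lines, and the LTBP sum is lowest in 786-O, where LTBP3 makes up 74.7% of it on average.

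TGFBI (chr5:136028988-136063818, plus strand) encodes a secreted matrix protein that binds collagens and integrins and was named for its induction by TGF-beta. It had 3432, 3312 and 3519.6 CPM in HK2, 9767, 9581 and 9629 CPM in 786-O and 11160.1, 10662 and 11097 CPM in 786-M1A. The lines did not overlap and were ordered HK2, 786-O, 786-M1A. TGFBI was 2.82-fold higher in 786-O (log2 fold change 1.50, SE 0.03, adjusted p = 5.38e-21) and 3.20-fold higher in 786-M1A (log2 fold change 1.68, SE 0.03, adjusted p = 6.49e-22) than in HK2. 786-M1A was above 786-O by a log2 fold change of 0.18 (SE 0.03, adjusted p = 2.39e-05). In raw counts it was the gene with the highest count in every 786-O and 786-M1A library, and ranked 6 in every HK2 library. Its share of all counts was 0.342% to 0.360% in the HK2 libraries, 0.960% to 0.976% in those of 786-O and 1.03% to 1.08% in those of 786-M1A.

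Per kilobase of exons TGFBI was the highest member in each line, at 443 ± 13.5, 1252 ± 12.6 and 1422 ± 35.1 CPM in HK2, 786-O and 786-M1A. In HK2 it was followed by TGFB2 (81.1), TGFB1 (45.2), LTBP4 (23.2), LTBP2 (20.3), TGFBR2 (20.0), LTBP3 (11.6), TGFBR1 (7.88), TGFBR3 (0.335) and LTBP1 (0.204). LTBP2 and TGFBR2 overlapped, the only neighbours in the order of any line that did. The order in 786-O was TGFB1 (66.2), TGFB2 (24.7), TGFBR2 (17.9), LTBP3 (16.8), TGFBR1 (9.20), LTBP4 (4.02), LTBP2 (1.27), LTBP1 (0.401) and TGFBR3 (0.148). In 786-M1A it was TGFB1 (46.5), TGFB2 (25.1), TGFBR2 (21.1), LTBP4 (16.6), LTBP3 (12.7), TGFBR1 (9.49), LTBP1 (2.23), LTBP2 (1.35) and TGFBR3 (0.0972). LTBP1 was thus the lowest member in HK2 and TGFBR3 in both cancer lines. With the longest transcript as the length, 8, 7 and 6 of the 10 members kept their rank in HK2, 786-O and 786-M1A, and LTBP3 moved up in each.

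Some genes outside the pathway had patterns close to those of members, measured as the Euclidean distance between centred log2 CPM over the 9 libraries. For TGFB2 the nearest of all genes tested was CCBE1, at a distance of 0.109, with 247 ± 8.10, 74.1 ± 1.88 and 79.7 ± 4.43 CPM in HK2, 786-O and 786-M1A. For LTBP4 it was ANXA3 at 0.213, with 140 ± 3.53, 25.6 ± 0.296 and 102 ± 2.73 CPM, followed by HTATIP2 and TSPAN2. TGFBI was nearest to UBE2G2 (0.104), LTBP3 to HIBADH (0.0992), TGFB1 to MAPKBP1 (0.187), LTBP2 to RNF144B (0.333), TGFBR1 to CENPE (0.0938), TGFBR2 to GTPBP10 (0.0864) and TGFBR3 to CTSO (0.499). LTBP1 had no gene nearer than FBXO27 at 1.02, which had 1.46 ± 0.0940, 3.35 ± 0.0928 and 12.4 ± 0.250 CPM. With 3 lines, such a likeness rests largely on 3 means.

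The remaining genes of the pathway were taken from fixed lists, and each list is described by its counts and its median log2 fold change. Beside each list stand the 56.0%, 84.2% and 84.9% of all genes called in the 3 comparisons, split almost evenly by direction. A gene nearly absent from a line passed the filter only by being high in another, so that its direction was fixed by the filter. INHBB, BMP4, GREM1, FBN2, FBLN1, FBLN2, EFEMP2 and CDKN2B are of this kind. BGN and PLAT, low in both cancer lines, also passed only through HK2, and MMP2, low in HK2, only through the cancer lines. Over the libraries of HK2, 786-O and 786-M1A, BGN had 1454, 250 and 13 counts, PLAT 1571, 74 and 102, and MMP2 53, 13857 and 81445. Among 16 other ligands of the superfamily, 8 were tested. Of these, 1 was higher and 6 were lower in 786-M1A than in 786-O (median -0.73), 2 were higher and 6 lower in 786-O than in HK2 (median -1.02), and 1 was higher and 6 lower in 786-M1A than in HK2 (median -1.66). INHBA, the subunit of activin A, fell along this order of lines, with 406 ± 22.3, 118 ± 5.27 and 39.9 ± 4.84 CPM in HK2, 786-O and 786-M1A (log2 fold change -1.57 between the cancer lines, SE 0.08, adjusted p = 2.48e-09). INHBB, the subunit of activin B, had 0 to 1 counts in the HK2 libraries, 23.2 ± 0.609 CPM in 786-O and 29.6 ± 0.865 in 786-M1A. BMP4, a bone morphogenetic protein, had 231 to 315 counts in HK2, 0 to 3 in 786-O and 0 to 1 in 786-M1A. TGFB3 fell from 4.91 ± 0.206 CPM in HK2 to 2.00 ± 0.411 in 786-O and 0.864 ± 0.154 in 786-M1A. BMP7 had 0 counts in every library.

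Of 11 other receptors and co-receptors, 9 were tested. Between the cancer lines 1 was higher and 5 were lower in 786-M1A (median -0.15), against HK2 786-O had 4 higher and 5 lower (median -0.38), and 786-M1A had 1 higher and 5 lower (median -0.45). The exception between the cancer lines was ENG, endoglin, a co-receptor related to TGFBR3. ENG had 50.5 ± 3.18, 0.855 ± 0.112 and 12.1 ± 1.23 CPM in HK2, 786-O and 786-M1A, a log2 fold change of 3.81 between the cancer lines (SE 0.12, adjusted p = 2.11e-16) and of -5.87 for 786-O against HK2 (SE 0.10, adjusted p = 2.94e-22). Like LTBP4, it was lowest in 786-O and intermediate in 786-M1A. BMPR1B, a type I receptor for bone morphogenetic proteins, fell from 13.5 ± 0.403 CPM in HK2 to 5.18 ± 1.06 and 1.02 ± 0.172.

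Secreted inhibitors were represented by 4 tested genes of 9. In 786-M1A 2 of them were lower than in 786-O and none was higher (median -0.27). In each cancer line against HK2, 2 were higher and 2 lower (medians -0.50 in 786-O and -2.78 in 786-M1A). Each of these medians is the midpoint between BGN and FSTL3, which went in opposite directions, and describes no gene of the list. The 2 lower genes, GREM1 and BGN, passed the filter only through HK2, so that their direction against HK2 was fixed by it. GREM1, an antagonist of bone morphogenetic proteins, had 645 ± 27.6 CPM in HK2 and 0 to 1 counts in every library of the cancer lines. FSTL1 and FSTL3 are follistatin-like proteins. FSTL1 had 32.1 ± 0.901, 1381 ± 13.5 and 1309 ± 43.5 CPM in HK2, 786-O and 786-M1A, and FSTL3 had 85.2 ± 2.05, 263 ± 17.1 and 190 ± 11.7 CPM. BGN, the proteoglycan biglycan, fell from 12.4 ± 0.125 CPM in HK2 to 1.99 ± 0.313 in 786-O and 0.117 ± 0.0448 in 786-M1A, the last from 3 to 6 counts per library.

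All 8 SMAD genes, the transcription factors downstream of the receptors and their inhibitors, were tested. Comparing the cancer lines, 4 were lower in 786-M1A and none was higher (median -0.10), whereas against HK2 5 were higher and 2 lower in 786-O (median 0.14) and 4 were higher and 2 lower in 786-M1A (median 0.09). SMAD3, which TGFBR1 activates, had 297 ± 16.5, 240 ± 0.899 and 200 ± 5.58 CPM in HK2, 786-O and 786-M1A. SMAD9, of the bone morphogenetic protein branch, had 5.62 ± 0.335, 20.9 ± 1.25 and 15.9 ± 1.66 CPM. SMAD4, the common partner, passed the test in no comparison, with 84.0 ± 2.18, 83.5 ± 1.61 and 82.4 ± 0.766 CPM. The inhibitory SMAD7 lay between 45.9 and 49.1 CPM on average.

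SMAD co-regulators gave 10 tested genes of 11, with 3 higher and 4 lower in 786-M1A than in 786-O (median -0.02), and with 2 higher and 7 lower in each cancer line against HK2 (medians -0.38 and -0.37). PMEPA1, a feedback inhibitor that sequesters SMADs, had 364 ± 13.7, 714 ± 22.0 and 575 ± 3.63 CPM in HK2, 786-O and 786-M1A. SMURF1, a ubiquitin ligase for SMADs and receptors, was highest in 786-M1A, at 126 ± 5.55 CPM, against 86.8 ± 1.28 in 786-O and 79.4 ± 4.40 in HK2.

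Genes known to free or process latent TGF-beta were tested for 14 of 16. Relative to 786-O, 786-M1A had 5 higher and 7 lower (median -0.08), 786-O had 6 higher and 8 lower than HK2 (median -0.47), and 786-M1A had 7 in each direction (median -0.34). MMP2 passed the filter only through the cancer lines, and PLAT only through HK2, so that their directions against HK2 were fixed. MMP2, a gelatinase, had 0.450 ± 0.0681, 111 ± 1.82 and 725 ± 15.0 CPM in HK2, 786-O and 786-M1A. TGM2, a transglutaminase that cross-links latent complexes to matrix, had 672 ± 32.9, 345 ± 11.4 and 1264 ± 28.1 CPM, the highest value again in 786-M1A. The integrin subunits went in different directions. ITGB6, of the integrin that frees TGF-beta on epithelia, fell from 79.5 ± 5.40 CPM in HK2 to 25.4 ± 2.34 and 6.21 ± 0.398, while ITGB8 had 40.9 ± 1.62, 131 ± 11.5 and 116 ± 3.01 CPM in HK2, 786-O and 786-M1A. THBS1, thrombospondin, had 1168 ± 66.7, 938 ± 40.4 and 445 ± 40.1 CPM. LRRC32 and NRROS, which anchor latent TGF-beta on cell surfaces, were not tested. LRRC32 had 31 to 38 counts in HK2 and at most 1 count in any cancer library.

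Of 9 matrix partners of the LTBPs 6 were tested, and 1 was higher and 5 were lower than in HK2 in each of 786-O and 786-M1A. Of all genes, 42.6% and 43.3% were lower in these comparisons. FBN2, FBLN1 and FBLN2 passed the filter only through HK2, so that their direction was fixed by it. The medians (-5.01 and -5.67) fall in a gap between genes. In 786-O the gap is between FN1 (-1.99) and FBLN2 (-8.03), and in 786-M1A between FBN1 (-3.13) and FBLN2 (-8.20). Between the cancer lines 1 was higher and 3 were lower in 786-M1A (median -0.69). This median includes FBN2, which had at most 1 count in any cancer library and so no measured fold. Without FBN2 the middle gene is EFEMP2, at -0.17. FBN1, fibrillin, had 253 ± 25.0, 66.7 ± 8.61 and 28.9 ± 3.83 CPM in HK2, 786-O and 786-M1A, and FBN2 had 967 to 1612 counts in HK2, 0 to 1 in 786-O and 0 in 786-M1A. FBLN1, fibulin, had 162 ± 3.27 CPM in HK2 and at most 10 counts in any cancer library. FN1, fibronectin, had 6538 ± 658, 1646 ± 105 and 3986 ± 499.9 CPM and was the gene higher in 786-M1A than in 786-O (log2 fold change 1.28, SE 0.12, adjusted p = 7.30e-05). EFEMP2, another fibulin, was the gene higher than in HK2, with 3 to 11 counts there, 25.8 ± 0.244 CPM in 786-O and 22.9 ± 0.952 in 786-M1A.

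All 19 genes of a list drawn up as induced by TGF-beta in epithelial cells were tested, and genes of it were called in each direction in each comparison. Whether TGF-beta induces each of them in these lines, ID1 included, was not tested. FN1, SMAD7, SKIL and PMEPA1 stand in the lists above too, and COL1A1 is also a fibroblast marker. Between the cancer lines 6 were higher, 8 lower and 5 not called (median -0.03 without CDKN2B, which is at 0 in both), in 786-O against HK2 6 were higher and 11 lower (median -0.25), and in 786-M1A against HK2 4 were higher and 13 lower (median -0.58). BHLHE40, a transcriptional repressor, had 74.1 ± 1.39, 268 ± 3.76 and 289 ± 1.83 CPM in HK2, 786-O and 786-M1A, and in the same order CDKN1A, the cell cycle inhibitor p21, had 32.6 ± 0.661, 90.8 ± 4.11 and 109.9 ± 2.39 CPM. CCN2 and TAGLN, a matricellular protein and a smooth muscle actin-binding protein, were far lower in the cancer lines. In that order CCN2 had 471 ± 37.2, 19.1 ± 0.952 and 21.8 ± 1.74 CPM, and TAGLN 255 ± 10.5, 4.35 ± 0.570 and 4.38 ± 0.279 CPM. TGFB1I1, a focal adhesion protein also called Hic-5, was lowest in 786-O at 8.06 ± 0.381 CPM, with 115 ± 2.98 in HK2 and 59.3 ± 2.00 in 786-M1A. COL1A1, of type I collagen, was highest in 786-O, with 53.6 ± 4.22, 291 ± 34.7 and 16.5 ± 1.24 CPM. CDKN2B, a cell cycle inhibitor, had 697 to 1001 counts in HK2 and 0 in every cancer library, and IL11 fell from 40.3 ± 2.11 CPM to 13.7 ± 1.14 and 3.90 ± 0.142.

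**Figure D4:**
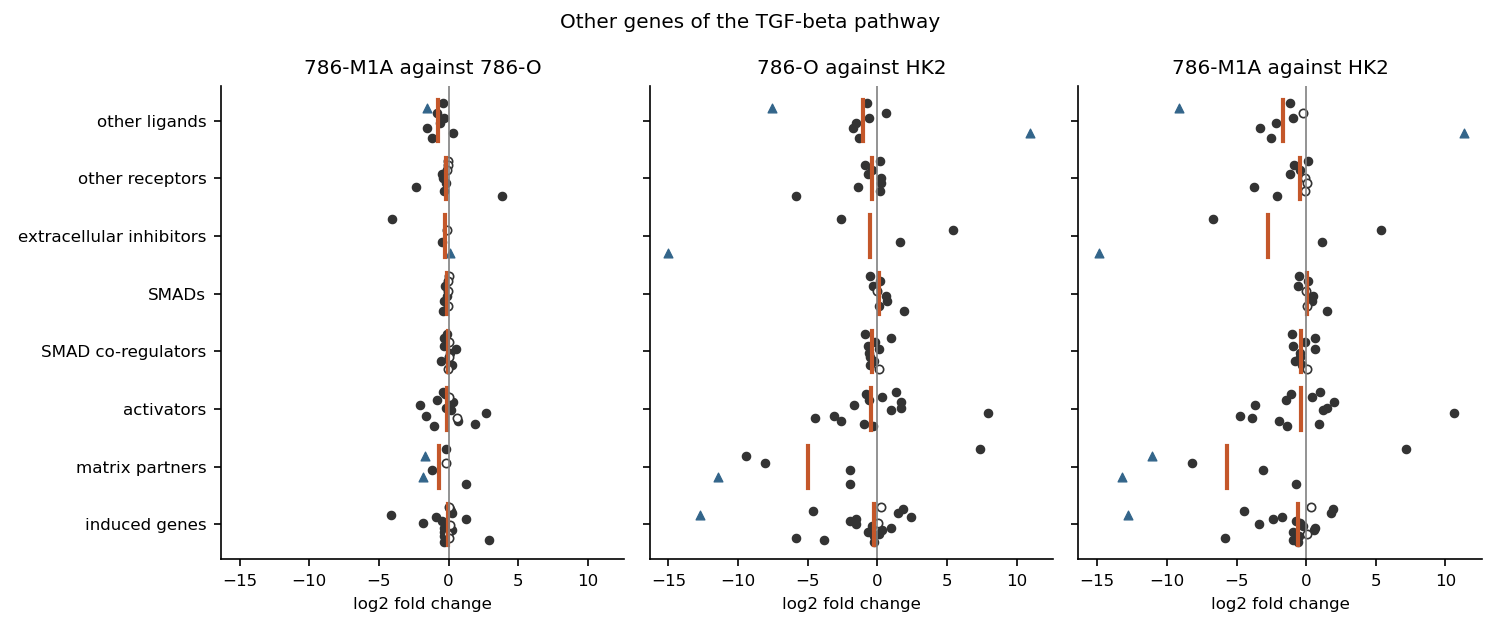
Log2 fold change of the tested genes of 8 lists in the 3 comparisons, with the median of each list as an orange bar. Filled points are called and open points are not, and triangles are genes with at most 3 counts in every library of a line compared, whose position depends on the prior count and is no measured fold. The medians include the triangles. Those of the matrix partners against HK2 (-5.01 and -5.67) fall in a gap between genes, and those of the SMAD genes lie between -0.10 and 0.14.

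The labelled cell types were set against marker genes. The 5 epithelial markers (EPCAM, CDH1, KRT8, KRT18, KRT19) summed to between 1255 and 1298 CPM in HK2, 453 and 491 in 786-O and 723 and 817 in 786-M1A. The marker sums here and below are in CPM, not divided by exon length. Most of each epithelial sum was keratin. Between the cancer lines 4 of the markers were higher in 786-M1A, with KRT19 at 186 CPM against 5.90 in 786-O. CDH1 was called lower in 786-M1A, but the libraries of these lines overlapped. CDH1 had 531 counts over the HK2 libraries, 11 over those of 786-O and 1 over those of 786-M1A, and passed the filter only through HK2. Of 7 kidney tubule markers, PAX8 was expressed in every line, and LRP2, of mature proximal tubule, was at 0 in every library, while CUBN, AQP1 and SLC34A1 had at most 60 counts in any. The list summed to between 292 and 313 CPM in HK2, 332 and 355 in 786-O and 304 and 334 in 786-M1A. Among ccRCC markers NDUFA4L2 was not analysed here. CA9 was at 0 in HK2 and had at most 3 counts in any cancer library, and VEGFA had 19.3 ± 0.537, 162 ± 11.2 and 330 ± 3.44 CPM. The 7 fibroblast and mural markers summed to between 77.7 and 87.1 CPM in HK2, 282 and 351 in 786-O and 302 and 306 in 786-M1A. In 786-O this sum was mostly COL1A1, and in 786-M1A mostly PDGFRB, at 282 ± 3.08 CPM, with PDGFRA at 0 in both lines. The part of these differences in the levels of TGFBI and the LTBP genes was not tested. Immune markers summed to at most 0.0829 CPM, with PTPRC, CD3E and HBB at 0 throughout, and the 4 endothelial markers to at most 1.11 CPM.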

How the data were processed

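Per the study's methods, poly(A) libraries were made with a stranded kit, and reads were counted on genes with featureCounts of the Rsubread package on GRCh38. The authors deposited these counts as whole numbers for 28395 genes by NCBI identifier, without normalization. Annotation version and strand setting are not given in the sources used here. Symbols came from RefSeq and matched 27745 identifiers, positions and exon lengths came from GENCODE 44, and promoter windows from RefSeq GRCh38.p14. Each library held between 30212291 and 45362428 counts, and floors cover counting error only.

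The 12695 genes averaging 50 counts or more were tested with edgeR 4.0.16 in R 4.3.3, using TMM, a robust quasi-likelihood F test, all 9 libraries in 1 fit without a block, and Benjamini-Hochberg adjustment at 0.05. The biological coefficient of variation was 3.93%. Alternatives were RLE and upper-quartile scaling, DESeq2 1.42.0, limma 3.58.1 on log2 CPM with 0 counts set to 0.5, no filter or at least 10 counts in every library, a fit of 2 lines, the replicate number as a block and each library left out. The study's VSN step was not run. Distances used a prior count of 2. The models were tested on simulated data.

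Members and lists were chosen with earlier results of these data known. All members are named. Of each list, the called genes without overlap with the largest changes were candidates, at most 3 per direction and comparison, together with genes under the floor in a line, and examples of these are given. SMAD4 and SMAD7 are named in addition, chosen after their values were seen. For a few of the listed genes no value is given here.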

Additional observations from a re-analysis of the deposited data

How the results depend on the processing

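The 10 members in 3 comparisons gave 419 values under the alternatives, of which 410 kept direction and side of the threshold. Every count of genes or members called stayed within 1.5 times its value in the report. The members called numbered between 6 and 7 in 786-M1A against 786-O, 10 in 786-O against HK2 under every alternative, and between 8 and 9 in 786-M1A against HK2. The only changes of sign were those of TGFB1 between 786-M1A and HK2, which was not called at 0.04 and gave -0.0072 under upper-quartile scaling, -0.025 without 786-M1A replicate 1 and -0.015 without HK2 replicate 2. TGFBR3 between the cancer lines ranged from -0.80 to -0.46 when libraries were left out and lost its call in 4 of these fits, and it was not tested in the fit of those 2 lines alone, where it fell under the filter. TGFBR2 between 786-M1A and HK2 was called without a filter (0.10, adjusted p = 0.0233) and without 786-M1A replicate 1 (0.11, adjusted p = 0.0133). In 786-O against HK2, LTBP1 kept its call throughout and was under 2-fold with upper-quartile scaling (0.97), DESeq2 (0.99), limma (0.97), at least 10 counts in every library (0.998), and without 786-O replicate 3 (0.79), HK2 replicate 2 (0.96) or HK2 replicate 3 (0.87). The cause of these changes was not tested.

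With the replicate number as a block, 7157 genes were called between 786-M1A and 786-O, 10688 between 786-O and HK2 and 10797 between 786-M1A and HK2, and 7, 10 and 8 members. Deviations of libraries with the same number correlated at 0.215, 0.0740 and 0.110 between the cancer lines, between -0.0573 and -0.0285 for 786-O and HK2 and between -0.167 and 0.0376 for 786-M1A and HK2, so that the numbers were not taken as pairs. Depth limits TGFBR3, with 26 to 135 counts per library, and LTBP1 in HK2, with 55 to 59.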
